A study of Mus musculus with 18 samples.

Results

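This account compares the ends with the middle of a cardiac differentiation time course, in order to find genes that follow a U or an arch across the days rather than a steady trend. The ends are the D5 and D15 libraries (3 each) and the middle is the D7 and D8 libraries (3 each), so 12 of the 18 libraries of the series enter the comparison, with each day weighted equally. All libraries are polyA RNA from untreated cultures of TBX5-FTA, a mouse embryonic stem cell line in the A2Lox.cre background, harvested on the day of differentiation given in their name. The labels call D5 and D7 cells cardiac progenitors and D8 and D15 cells cardiomyocytes, so the ends and the middle each hold 1 day of either label. The remaining libraries, 3 each at D6 and D10, helped to estimate the spread and are given only as neighbouring values. All libraries come from 1 line, nothing in the labels places the 3 libraries of a day in separate cultures, and each library is a mixture of whatever cells its dish held. The p-values therefore measure the spread between these libraries, which may be technical.

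In such cultures, mesoderm cells commit to a cardiac fate, pass through a progenitor stage that is shaped by Wnt, BMP, FGF, Notch, retinoic acid and Hedgehog signals, and then assemble sarcomeres, the contractile units of muscle. Many of these signals act in pulses in the embryo: canonical Wnt signalling is needed to make mesoderm and then has to be low for cardiac differentiation, and retinoic acid patterns the posterior heart tube and later the epicardium. A gene that is used early, silenced in between and used again later gives a U. A gene used for a short time gives an arch. In bulk RNA, fewer cells of a type and less RNA per cell cannot be told apart, so both readings apply to every value below.

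Values are normalised counts scaled to the size of the library (CPM), and differences are log2 ratios from edgeR's quasi-likelihood fit over all 18 libraries, given with their standard error. Between the 3 libraries of a day the SD was at the median 12.2% of the mean, and in 9 of 10 cases under 37%, over the genes named here at daily means of at least 1 CPM. The libraries of a day are called the first, the second and the third in the order in which their values are listed. Because the ends have a mean day of 10 and the middle of 7.5, a gene that rises or falls steadily can also give a difference between ends and middle. The shape was therefore read from the 2 arms, D5 minus the middle and D15 minus the middle. A gene was called U when both arms were above 0 and arch when both were below 0, each at an adjusted p under 0.05 (edgeR, Benjamini-Hochberg over all genes tested). Genes whose arms were both called in opposite directions had the middle between their 2 ends, and are said to follow a trend. The order of the single days was not used for this, so such a gene can still go up and down between the ends.

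Of 13116 genes tested, 6832 (52.1%) differed between ends and middle, 3262 (24.9%) higher and 3570 (27.2%) lower at the ends. A further 680 genes had an unadjusted p under 0.05 and were not called. A shape with both arms on one side was less common: 913 genes (6.96%) were U and 1019 (7.77%) were arch, whereas 4201 (32.0%) had opposite arms, 2114 of them above the middle at D5 and below it at D15. Every U gene was also called higher at the ends and every arch gene lower, which the rule almost forces. In 289 U genes and 193 arch genes both arms reached 1 on the log2 scale. In 383 U genes and 435 arch genes the difference between D15 and D5 itself was not called. The median difference over all genes was -0.014 for ends minus middle.

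More genes were called at either end alone than for both ends together. The D5 arm was called for 4043 genes above the middle (30.8%) and 4073 below it (31.1%). Together these were 61.9% of the genes tested. The D15 arm was called for 4760 above (36.3%) and 4619 below (35.2%). Together these were 9379 genes (71.5%), and 10231 genes (78%) differed between D15 and D5. The root mean square log2 distance between 2 libraries, averaged over all pairs from 2 days, was 1.86 for D15 and D5 and 1.14 for D5 and D8. It was 0.907 for D5 and D7, 1.56 for D15 and D7, 1.36 for D15 and D8 and 0.607 for D7 and D8. Between libraries within a day its mean was 0.343 to 0.408. The D5 and D15 libraries were thus the farthest apart of these days. Depth was even, with 5257601 to 7122093 counts per library. No 2 libraries of a day agreed within sampling noise.

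**Figure D1:**
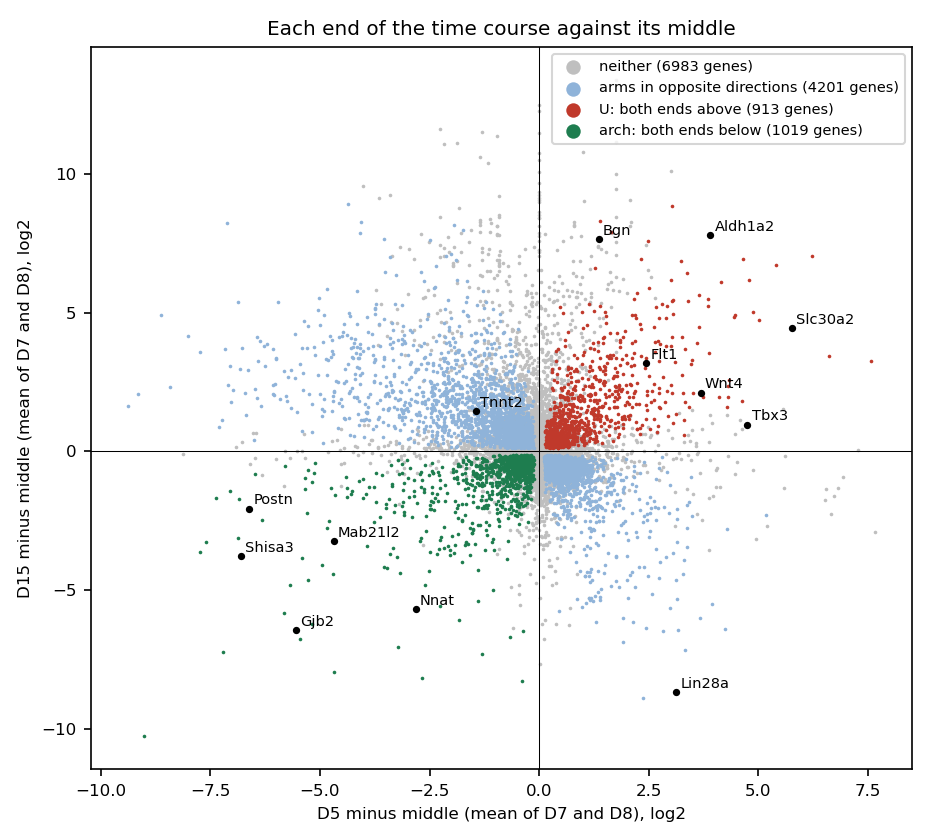
Each point is 1 of 13116 genes; the x axis is D5 minus the middle and the y axis D15 minus the middle, both as log2 ratios. The 913 U genes (red) fill the upper right, the 1019 arch genes (green) the lower left, and the 4201 genes with opposite arms (blue) the other corners, with neither-shape genes in grey.

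The lowest of the 6 daily means of a U gene was at D7 in 363 genes, at D8 in 298, at D6 in 129 and at D10 in 123. The highest of an arch gene was at D8 in 375, at D7 in 340, at D10 in 170 and at D6 in 134. D6 and D10 were not used to call the shapes, and 14.1% of U genes turned at D6 and 13.5% at D10, as did 13.2% of arch genes at D6 and 16.7% at D10. The 6 end libraries lay above the 6 middle libraries without overlap in 603 genes (4.6%) and below them in 685 (5.22%), 580 of the U genes and 646 of the arch genes among them. When each end had to be called against D7 and against D8 separately, a rule added after seeing the data, 513 of the U genes (56.2%) and 609 of the arch genes (59.8%) kept their shape.

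The U genes with the largest smaller arm were led by Slc30a2, Aldh1a2 and Bmper, with Rasl11a, Adamts20, Extl1, Card10, Flt1, Gprc5a, Wnt2b, Gadd45b and Ptprb completing the 12. These 12, and the arch genes named after them, were taken from genes whose end and middle libraries did not overlap, so that their separation is a part of the choice. Aldh1a2 (mm10 chromosome 9, 71215789 to 71296243, plus strand) encodes the enzyme that makes retinoic acid in mesoderm. It had 15, 12.6 and 12.4 CPM at D5 and 173, 219.8 and 202 CPM at D15, against 0, 0.771 and 0.155 CPM at D7 and 3.78, 2.32 and 1.44 CPM at D8. The gene was far higher at D15 than at D5. The difference between ends and middle was 5.85 ± 0.21 (edgeR, adjusted p = 3.1e-16), made up of 3.9 ± 0.28 at D5 and 7.8 ± 0.18 at D15.

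Slc30a2 (mm10 chromosome 4, 134343181 to 134354484, plus strand), a zinc transporter gene, had 86.3, 88.5 and 78.5 CPM at D5 and 29.8, 37.4 and 33.9 CPM at D15, against 1.79, 1.54 and 2.48 CPM at D7 and 0.436, 1.33 and 2.15 CPM at D8. Here the early end was the higher one, with arms of 5.76 ± 0.18 at D5 and 4.44 ± 0.21 at D15. Bmper, which encodes a secreted BMP-binding protein of endothelial cells, had 29.8, 26 and 22.6 CPM at D5 and 16.6, 21.1 and 17.3 CPM at D15, against 4.17, 2.62 and 2.79 CPM at D7 and 2.03, 3.65 and 1.26 CPM at D8. Its arms were 3.26 ± 0.22 at D5 and 2.75 ± 0.23 at D15, so that the late level came back close to the early one.

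Flt1 encodes a VEGF receptor that binds VEGF without strong signalling. It had 20.7, 21.2 and 21.9 CPM at D5 and 46.8, 32.4 and 27 CPM at D15, against 4.62, 5.71 and 4.34 CPM at D7 and 3.92, 2.16 and 3.23 CPM at D8, and its arms were 2.44 ± 0.21 and 3.18 ± 0.20. Ptprb, a phosphatase of endothelial junctions, was at 10.9, 3.58, 3.01, 1.84, 3.54 and 12.9 CPM from D5 to D15 in daily means, with arms of 2.23 ± 0.27 and 2.47 ± 0.27. Wnt2b, a Wnt ligand, had 51.7, 41 and 49.4 CPM at D5 and 96.5, 111 and 102 CPM at D15, against 6.11, 10.2 and 9.46 CPM at D7 and 7.12, 9.79 and 15.1 CPM at D8. Its D15 libraries were the highest, and its D7 and D8 libraries overlapped each other well below both ends.

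Gadd45b, a stress-inducible gene, had daily means of 15.8, 3.89, 3.01, 3.39, 14.3 and 77.6 CPM from D5 to D15, and Gprc5a, an orphan receptor induced by retinoic acid, 19.8, 3.74, 3.88, 3.5, 12.8 and 38.3 CPM. Adamts20 encodes a secreted metalloprotease that cuts versican, and its daily means were 10.5, 4.85, 1.48, 1.14, 4.87 and 17.9 CPM. Extl1, of the heparan sulfate synthesis family, had 34.4, 15.4, 8.65, 4.31, 10.3 and 40.6 CPM. Card10, a scaffold upstream of NF-kB, was at 26.4, 11.8, 5.0, 4.67, 7.02 and 22 CPM, and Rasl11a, a small GTPase gene, at 11.5, 3.36, 1.57, 1.26, 3.53 and 24.6 CPM. In each of these 6 genes the lowest of the 6 daily means was at D7 or D8.

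**Figure D2:**
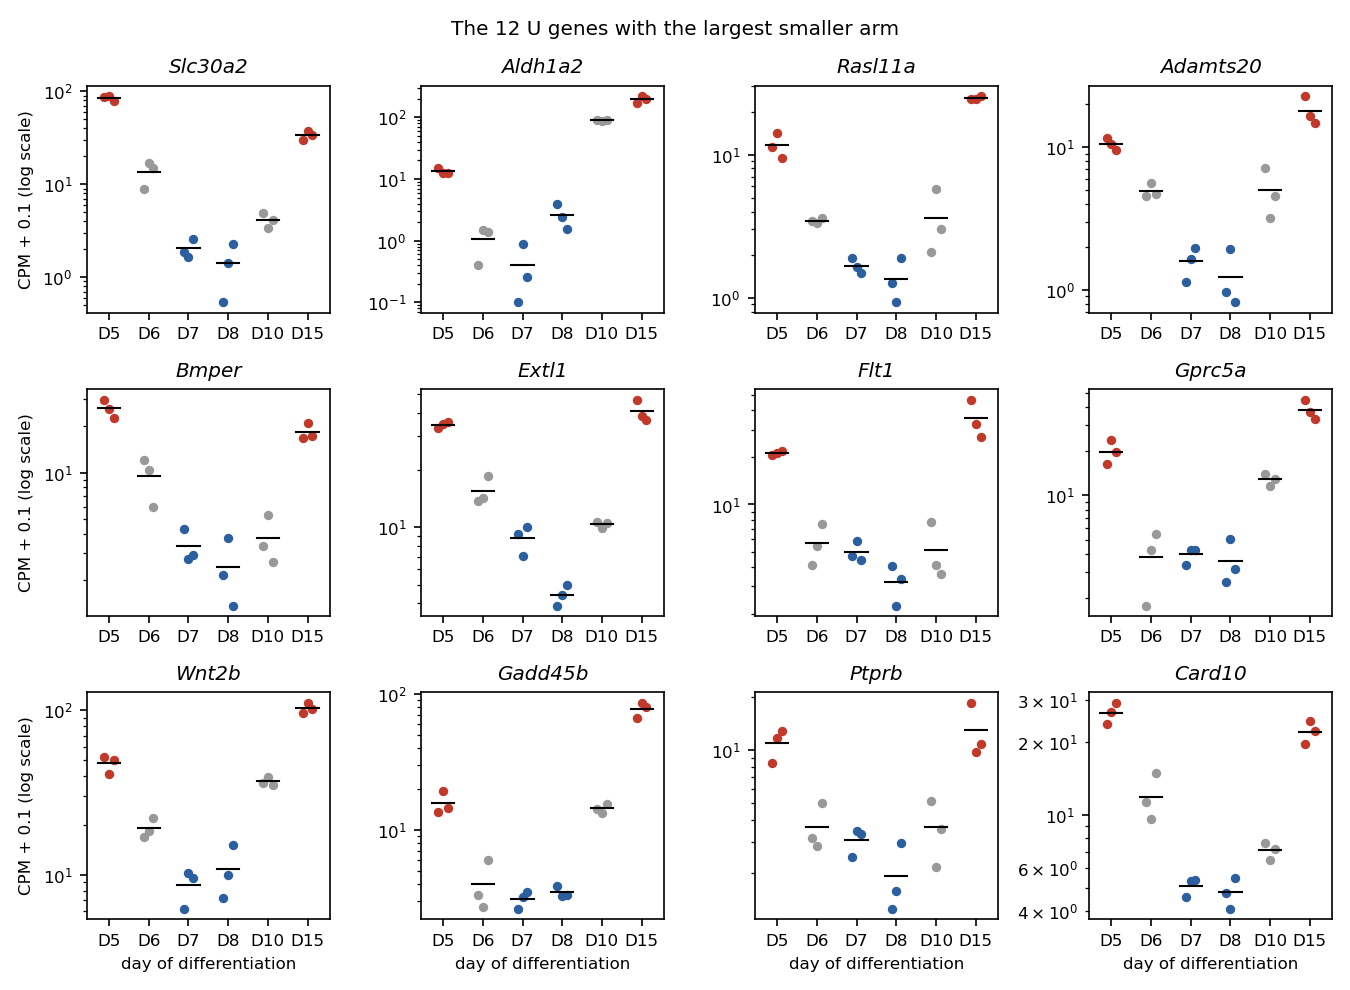
CPM plus 0.1 on a log axis for the 12 U genes with the largest smaller arm, by day; points are libraries, bars are means of 3 libraries, red marks the ends (D5, D15), blue the middle (D7, D8) and grey D6 and D10. The genes were chosen for red points above all blue points, and the return at D15 is widest in Aldh1a2, with a D15 mean of 198 CPM.

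Among the 12 arch genes with the largest smaller arm were Gjb2, Odz2, Shisa3, Mab21l2, Lhx2, Grhl3, Nnat, Itga4, Sox9, Hsd3b6 and Sfrp5. Gjb2 (mm10 chromosome 14, 57098600 to 57104702, minus strand) encodes the gap junction protein connexin 26. It had 0, 0.839 and 0.409 CPM at D5 and 0, 0.532 and 0.16 CPM at D15, against 24.6, 19.6 and 21.9 CPM at D7 and 18.7, 19.1 and 15.6 CPM at D8. The end libraries held almost no counts, and the arms were -5.56 ± 0.35 at D5 and -6.44 ± 0.41 at D15. The difference of -6.0 ± 0.29 had an adjusted p of 9.4e-17 (edgeR).

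Itga4 (mm10 chromosome 2, 79255426 to 79333123, plus strand) encodes the integrin alpha 4 subunit, which proepicardial cells need to attach to the heart. It had 13.7, 15 and 24 CPM at D5 and 15, 11.9 and 10.1 CPM at D15, against 66.4, 74.8 and 67 CPM at D7 and 223, 197 and 157 CPM at D8. D8 was above D7 by 1.47 ± 0.15, and the D10 mean of 244 CPM was higher still, so the peak lay at D8 to D10. Mab21l2, which is needed for the ventral body wall and the proepicardium in mice, had 5.82, 7.55 and 6.54 CPM at D5 and 16.6, 14.7 and 22.7 CPM at D15, against 156, 137 and 141 CPM at D7 and 200.0, 194 and 213 CPM at D8. Only 66.7% of its 50-base stretches are unique to it, because its exon overlaps transcripts of Lrba, so its values are uncertain to that extent.

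Sfrp5, a secreted Wnt inhibitor of the sinus venosus and proepicardial region, had 18.5, 14.4 and 13.6 CPM at D5 and 3.18, 2.66 and 4.16 CPM at D15, against 91.9, 54.6 and 37.7 CPM at D7 and 182, 136 and 106 CPM at D8. The D8 libraries were the highest and the D15 libraries the lowest of these libraries. Shisa3, whose product restrains Wnt and FGF receptors, had daily means of 0.373, 9.76, 37.2, 46.5, 39.7 and 3.09 CPM from D5 to D15.

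Transcription factors of other tissues were among the arch genes. Sox9, of cartilage and valve mesenchyme, had daily means of 2.25, 2.35, 7.35, 28.3, 26.3 and 1.63 CPM, Lhx2, of limb, eye and liver mesenchyme, had 1.18, 5.71, 7.12, 16.9, 5.58 and 0.797 CPM, and Grhl3, of surface ectoderm, had 5.72, 30.1, 43.4, 61.2, 61.6 and 2.49 CPM. In Sox9 and Lhx2 D8 was above D7, by 1.95 ± 0.29 and 1.25 ± 0.25. Nnat, an imprinted gene for a small membrane proteolipid, had 90.4, 79.7 and 86.7 CPM at D5 and 7.59, 11.9 and 15.2 CPM at D15, against 626, 516 and 546 CPM at D7 and 649, 613 and 659 CPM at D8. It was lowest at D15 and also lower at D5 than in the middle. Hsd3b6, a steroid dehydrogenase gene, had 772 counts in the 6 middle libraries, 55 at D5 and 1 at D15. Its D15 level per total count was 0.00254 of that in the middle (exact 95% interval 6.42e-05 to 0.0142, counting error only). Odz2 had daily means of 2.16, 24.4, 77.8, 90.4, 25 and 3.42 CPM; the symbol was used for more than 1 teneurin gene, so its identity is not given here.

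**Figure D3:**
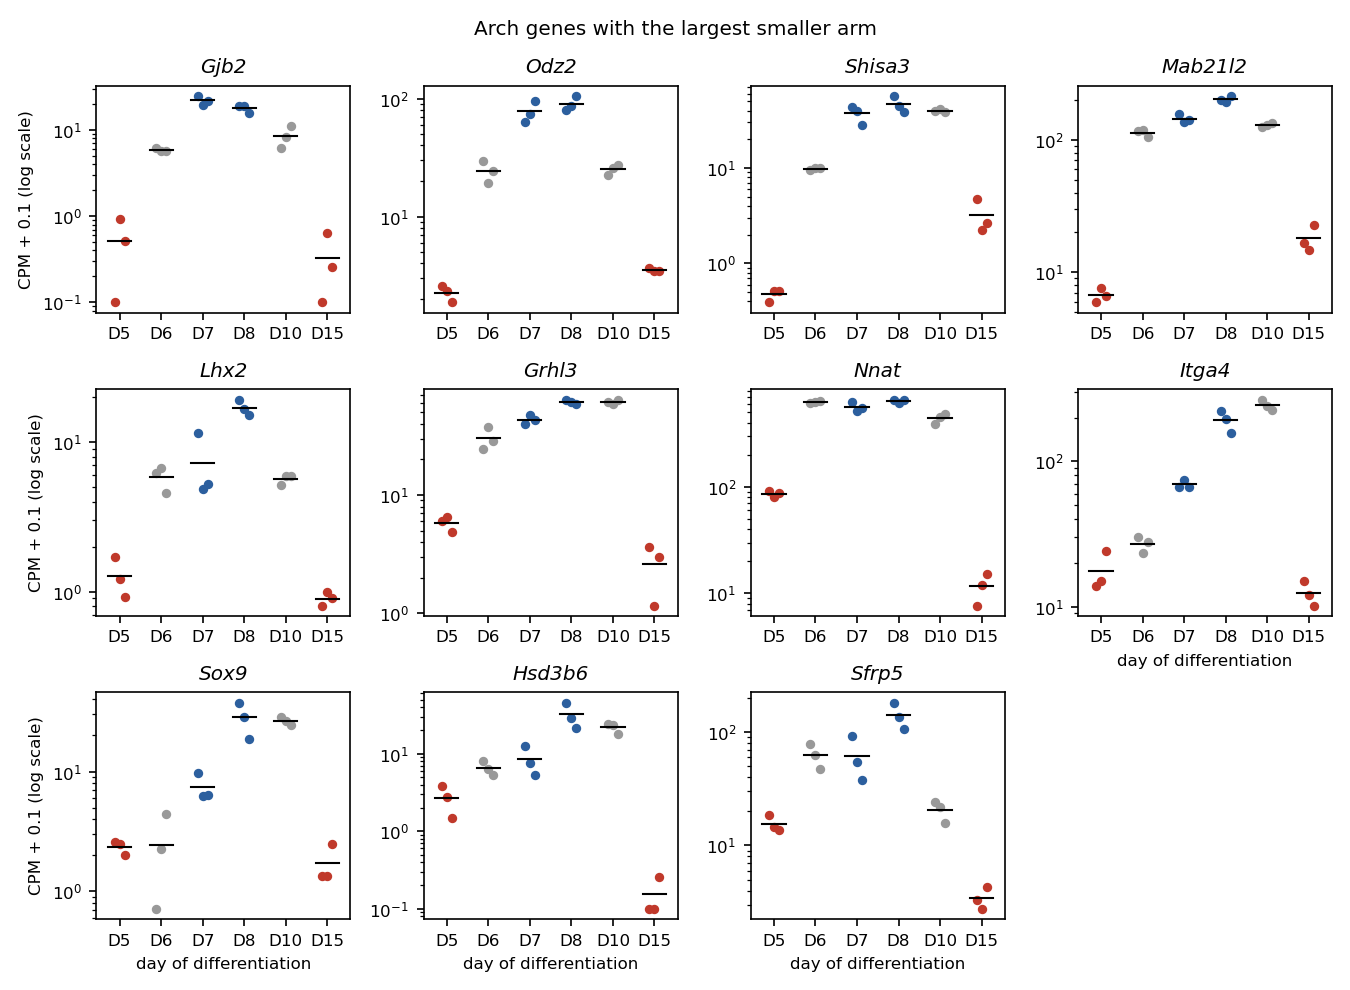
CPM plus 0.1 on a log axis for 11 of the 12 arch genes with the largest smaller arm, by day; points are libraries, bars are means of 3 libraries, red marks the ends (D5, D15), blue the middle (D7, D8) and grey D6 and D10. The genes were chosen for red points below all blue points, and Itga4 and Grhl3 have their highest means at D10.

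Counts of list members are to be read against those over all genes: 24.9% higher, 27.2% lower, 6.96% U, 7.77% arch and 32.0% with opposite arms. Signalling pathways held many U genes. Of 12 tested readouts and receptors of FGF signalling, 11 were higher and 1 was lower at the ends, with 7 U and 0 arch and a median difference of 1.31, against a median of -0.014 over all genes. The Etv transcription factors and the Spry, Spred and Dusp feedback inhibitors are induced by FGF receptors through ERK. Spry2 had 54.9, 74.2 and 65 CPM at D5 and 95.5, 106 and 92.8 CPM at D15, against 23.5, 24.1 and 17.2 CPM at D7 and 38.5, 33.5 and 30.2 CPM at D8. Both ends lay above the middle without overlap, with arms of 1.25 ± 0.14 at D5 and 1.85 ± 0.13 at D15.

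Dusp4, an ERK phosphatase gene, had 29.4, 34.2 and 37.4 CPM at D5 and 50.3, 39.9 and 46.1 CPM at D15, against 12.5, 13.9 and 9.92 CPM at D7 and 14.5, 15.9 and 14.2 CPM at D8. Its arms were 1.33 ± 0.15 and 1.76 ± 0.15, with no overlap between ends and middle. Etv5 had daily means of 6.76, 2.95, 2.03, 2.4, 5.62 and 24.6 CPM from D5 to D15, though only 75.5% of its 50-base stretches are unique to it. Etv4 was sparse, with 40 counts at D5 and 27 at D15 against 3 in the 6 middle libraries. Per total count its D5 level was 24.1 times that of the middle (exact 95% interval 7.66 to 122) and its D15 level 17.7 times (5.43 to 90.9), and both intervals cover counting error only.

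Spred1 was at 65.9, 32.3, 33.7, 45.3, 70.7 and 113 CPM and Spred2 at 23.2, 17, 13.4, 20.4, 28.9 and 39.8 CPM, both U, and in Spred2 the ends and the middle overlapped. Of the receptors, Fgfr2 was U with arms of 0.60 ± 0.10 and 0.25 ± 0.10. Fgfr1 was above the middle at D5 only, by 1.0 ± 0.06, and its D15 arm of 0.10 ± 0.06 was not called. Fgfr3 went the other way at D15, with arms of 0.99 ± 0.10 and -5.6 ± 0.19, and fell to 4.0 CPM there. In Dusp4, Etv4, Etv5, Spred1 and Spry2 each end was called against D7 and against D8 separately. The U of Fgfr2 was lost without the third D7, the third D8 or the third D15 library, with D15 arms of 0.22, 0.19 and 0.17. It was also lost with upper quartile scaling, with an arm of 0.19.

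Of 16 tested Wnt genes, 10 were higher and 4 lower at the ends, 8 were U and 2 arch, and the median difference was 1.09. Called against D7 and D8 separately, 6 of the 8 U genes and the 2 arch genes kept their shape, and Axin2 and Lgr5 did not. Axin2, Lef1, Sp5, Nkd2 and Apcdd1 are direct targets or feedback inhibitors of canonical signalling. Lef1, a nuclear partner of beta-catenin, had 42.4, 40.4 and 43.2 CPM at D5 and 9.71, 8.51 and 10.1 CPM at D15, against 5.36, 5.71 and 8.68 CPM at D7 and 1.89, 3.48 and 3.05 CPM at D8. Its D5 arm of 3.3 ± 0.15 was larger than its D15 arm of 1.15 ± 0.19, and the D7 and D15 libraries overlapped. Axin2 had 37.1, 33.8 and 47 CPM at D5 and 21.4, 19.5 and 18.7 CPM at D15, against 18.8, 15.3 and 17.2 CPM at D7 and 9.59, 10.1 and 10.2 CPM at D8. It had the same order, with its lowest daily mean of 7.53 CPM at D10.

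Nkd2, a membrane-tethered inhibitor of Dishevelled, had daily means of 3.08, 2.48, 0.77, 0.62, 3.3 and 20.2 CPM from D5 to D15, and Apcdd1, an inhibitor of Wnt receptors, 49, 48.5, 25.6, 16.4, 13.1 and 38.7 CPM. Sp5, a repressor induced by Wnt, was at 2.33, 0.616, 0.252, 0.337, 0.0645 and 1.24 CPM, close to the limit of detection in the middle. Lgr5, a receptor for the R-spondins that boost Wnt signals, was at 1.78, 0.0528, 0, 0.376, 0.109 and 0.502 CPM and had no count at D7. Without the third D15 library the D15 arms of Sp5 and Lgr5, 1.69 and 2.07, were not called.

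Among ligands, Wnt4 had 91.4, 97.4 and 84.1 CPM at D5 and 34.4, 25.3 and 32.2 CPM at D15, against 4.02, 6.79 and 9.77 CPM at D7 and 5.66, 5.97 and 10.6 CPM at D8. It was U with arms of 3.69 ± 0.22 and 2.12 ± 0.25, like Wnt2b. Wnt2, a ligand of the early heart fields and later of the lung mesenchyme, was an arch and had 27.4, 24 and 19.2 CPM at D5 and 9.18, 12.2 and 8.0 CPM at D15, against 74.2, 64.8 and 48.2 CPM at D7 and 88.3, 74.8 and 50.6 CPM at D8. The secreted inhibitor Sfrp1 was also an arch, with daily means of 35, 199.5, 333, 379, 564 and 150.1 CPM and its peak at D10. Another 4 members had opposite arms, at D5 and at D15: Nkd1, a relative of Nkd2, with -1.11 and 0.75, the inhibitor Dkk1 with 2.53 and -2.86, Tcf7, a relative of Lef1, with 1.15 and -1.91, and the ligand Wnt5b with -0.68 and 3.15, so targets and feedback genes did not all have the U. Wnt11, a ligand of non-canonical signalling in the heart, had arms of -3.68 ± 0.15 and 0.12 ± 0.10, and only the first was called.

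**Figure D4:**
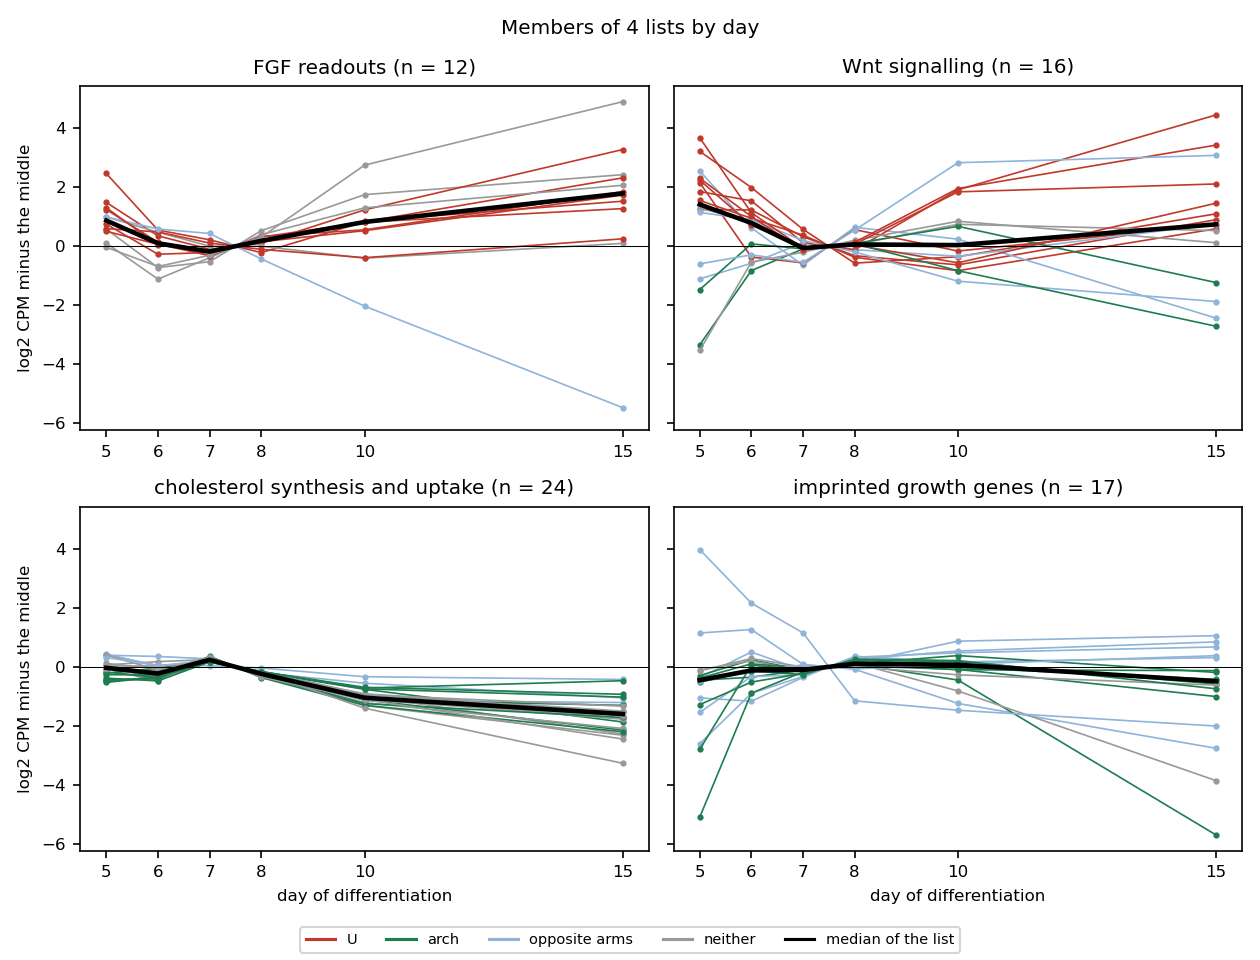
Daily mean log2 CPM minus the mean of D7 and D8 for the tested members of 4 lists, against day of differentiation; thin lines are genes coloured by shape and the black line is the median of the list. The medians of the FGF and Wnt lists lie above 0 at D5 and D15, that of the cholesterol list is near 0 at D5 and below it at D15, and that of the imprinted genes lies below 0 at both ends.

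Of 11 tested Notch genes, 8 were higher and 2 lower at the ends, 4 were U and 1 was an arch, with a median difference of 1.06. Notch1, a receptor, had 40, 34.4 and 36.5 CPM at D5 and 38.3, 31.9 and 31.5 CPM at D15, against 9.08, 11.9 and 15.8 CPM at D7 and 24.4, 29.5 and 16.7 CPM at D8. Both arms were about 1 on the log2 scale, 1.12 ± 0.14 and 0.99 ± 0.15, and ends and middle did not overlap. Lfng, a glycosyltransferase that tunes the receptors, had daily means of 5.32, 1.35, 2.0, 2.67, 8.25 and 17.6 CPM. The ligand Jag2 was U at 7.36, 3.05, 3.46, 5.24, 6.26 and 16.4 CPM, whereas the ligand Jag1 was an arch at 21, 24.8, 39.2, 78.8, 69.5 and 31.6 CPM. Notch2 was U with small arms of 0.22 ± 0.07 and 0.87 ± 0.07, and Notch3 was below the middle at D15 only, by -1.55 ± 0.09. The U of Notch2 was lost without the third D5 library, with a D5 arm of 0.14. That of Jag2 was lost without the second or the third D5 library or the third D7 library, with D5 arms of 0.49, 0.80 and 0.69. Against D7 and D8 separately, Notch1 and Lfng kept the U, whereas Jag2, Notch2 and the arch gene Jag1 did not keep their shape.

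Of 11 tested genes of retinoic acid synthesis, binding, breakdown and reception, 7 were higher and 2 lower at the ends, with 4 U, 1 arch and a median difference of 1.25. Cyp26b1 degrades retinoic acid and had 14.4, 17.2 and 10.6 CPM at D5 and 9.18, 8.86 and 7.36 CPM at D15, against 1.49, 3.4 and 2.33 CPM at D7 and 0.726, 2.32 and 1.44 CPM at D8. Its arms were 2.91 ± 0.25 and 2.17 ± 0.28, without overlap. Rarb, a receptor gene that retinoic acid itself induces, had 30.6, 29.2 and 24.3 CPM at D5 and 24, 24.6 and 28.3 CPM at D15, against 8.04, 11.4 and 7.44 CPM at D7 and 13.4, 14.8 and 14.6 CPM at D8. Its D10 mean of 63.6 CPM was above both ends, so its return came before D15, and 65.9% of its 50-base stretches are unique. Dhrs3, which turns retinal back to retinol, was at 12, 9.94, 6.54, 1.98, 33.5 and 68.5 CPM from D5 to D15.

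Crabp2, which carries retinoic acid to its receptors, was the arch of this list, with 20.2, 20.8 and 12.9 CPM at D5 and 0.353, 1.95 and 1.12 CPM at D15, against 67.5, 52 and 41.1 CPM at D7 and 46.3, 42.5 and 35.4 CPM at D8. Only 1 member was lower at the ends without the first D15 library. Together with Aldh1a2, listed with the second heart field genes, the synthetic enzyme, a degrading enzyme, a receptor and a recycling enzyme were low in the middle and the carrier was high. In Cyp26b1, Dhrs3, Rarb and Crabp2, each end was called against each middle day.

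Of 17 tested BMP genes, 6 were higher (35.3%, against 24.9% of all genes) and 7 lower (41.2%, against 27.2%) at the ends, with 4 U, 1 arch and a median difference of -0.28. Id1 and Id3, direct targets of BMP signalling, were U, and Id3 had 122, 132 and 141 CPM at D5 and 149.7, 194 and 208 CPM at D15, against 111, 91.8 and 99.7 CPM at D7 and 62.6, 62.4 and 48.1 CPM at D8. Its D6 mean of 191 CPM was the highest of the course. Id2, of the same family, was an arch at 105, 209, 202, 164, 146 and 132 CPM, and the inhibitory Smad7 a U with arms of 0.42 ± 0.13 and 0.62 ± 0.13. Smad7 lost its U without the third D5 library, with a D5 arm of 0.28. Bmper and Id3 kept the U against D7 and D8 separately, whereas Id1, Smad7 and the arch gene Id2 did not keep their shape. The ligand Bmp4 was above the middle at D5, by 1.74 ± 0.10, and its D15 arm of 0.18 ± 0.11 was not called. Bmp7 was below it at D15, by -1.93 ± 0.13. No single direction described this list.

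Of 16 tested immediate early genes, which growth factors and stress induce within minutes, 10 were higher and 1 lower at the ends, with 5 U and 0 arch and a median difference of 1.02. Dusp1, a phosphatase of stress kinases, had 45, 63.6 and 46.6 CPM at D5 and 53.3, 51.9 and 69.3 CPM at D15, against 23.1, 21 and 20.5 CPM at D7 and 15.1, 16.8 and 18 CPM at D8. Its arms were nearly equal, 1.46 ± 0.13 and 1.63 ± 0.13. Myc had 19.5, 27.7 and 21.1 CPM at D5 and 23.1, 22.9 and 21.1 CPM at D15, against 5.36, 9.41 and 3.56 CPM at D7 and 10.8, 8.46 and 8.98 CPM at D8, with arms of 1.58 ± 0.19 and 1.56 ± 0.20 and no overlap. Btg2, Junb and Nr4a1 were the other U genes, with D15 means of 150.2, 22.5 and 25.8 CPM against D7 means of 23.4, 0.758 and 4.54 CPM. Fos had only its late arm, 3.53 ± 0.25, with 0.36 ± 0.33 at D5. Without the third D15 library 1 gene of the list was an arch.

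Of 24 tested genes of smooth muscle and of the cytoskeleton that serum response factor (SRF) controls, 14 were higher and 3 lower at the ends, with 6 U, 1 arch and a median difference of 0.40. Vcl, encoding the adhesion protein vinculin, had 422, 450.4 and 409 CPM at D5 and 909, 881 and 874 CPM at D15, against 234, 293 and 255 CPM at D7 and 295, 305 and 298 CPM at D8. Its arms were 0.61 ± 0.06 and 1.67 ± 0.05, and 74.9% of its 50-base stretches are unique. Cyr61, a matrix protein gene that SRF and YAP induce, had 159, 245 and 167 CPM at D5 and 283, 244 and 342 CPM at D15, against 48.7, 63.6 and 57.4 CPM at D7 and 45.5, 65.2 and 63 CPM at D8. Ends and middle were apart by 2.04 ± 0.17, with no overlap.

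Tagln2, an actin-binding gene, was at 329, 172, 187, 200.0, 224 and 294 CPM from D5 to D15, and Tpm1, a tropomyosin of both muscle and non-muscle filaments, at 2539, 1149, 1363, 1216, 1692 and 1728 CPM. Myh11, the smooth muscle myosin, was at 20.6, 5.75, 5.12, 9.53, 79.2 and 75.8 CPM, and its D10 mean was as high as that at D15. Myl6, a non-muscle myosin light chain, had small arms of 0.55 ± 0.06 and 0.15 ± 0.06. Its D15 arm was not called without the second or the third D8 library or the first or the second D15 library, when it was 0.11 to 0.14, and the list had 2 arches without the third D10 library. With upper quartile scaling the arm of Myl6 was 0.09 and not called. The differentiation markers went apart: Acta2 had 1285, 1369 and 1220 CPM at D5 and 741, 669 and 555 CPM at D15, against 2033, 2280 and 2351 CPM at D7 and 1026, 1063 and 1027 CPM at D8, and its D5 arm of -0.23 ± 0.12 was not called while D15 was below the middle by -1.21 ± 0.13. Tagln had arms of 1.41 ± 0.12 and -0.50 ± 0.13, with 41.7% unique stretches.

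SRF binds the CArG box, 2 cytosines and 2 guanines around 6 A or T bases. In RefSeq promoters (GRCm38.p6, 250 bases before to 50 after the start) 5 of the 18 genes of this list with a promoter held one, 27.8%, against 166 of 10363 genes tested, 1.60%. Among U genes the share was 2.54% (18 of 710) and among arch genes 1.35% (11 of 812). Because the list was drawn up to hold genes that SRF controls, its share of boxes is in part set by that choice and does not bear on the U. The pattern of the CArG box is the same on both strands, though the letters of a single box need not be, and a match is a description of letters only. The promoters of Vcl and Myl6 are shown because both genes were U, and that of Cnn2 because it holds the same box as Vcl while Cnn2 was not U; capitals mark the box. The others with a box were Myl9, of neither shape, and Actg1, a non-muscle actin gene and the arch of this list, with arms of -0.27 ± 0.08 and -0.93 ± 0.08 and 62.6% unique stretches. They lie at chr14:20929148-20929447, plus strand (Vcl), chr10:128492960-128493259, minus strand (Myl6) and chr10:79988350-79988649, plus strand (Cnn2).
Vcl: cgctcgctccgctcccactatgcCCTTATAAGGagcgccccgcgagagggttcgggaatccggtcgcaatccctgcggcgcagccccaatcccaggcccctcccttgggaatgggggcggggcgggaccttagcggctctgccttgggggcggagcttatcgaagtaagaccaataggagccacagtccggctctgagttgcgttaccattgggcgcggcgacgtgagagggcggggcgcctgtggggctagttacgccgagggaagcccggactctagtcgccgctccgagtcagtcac
Myl6: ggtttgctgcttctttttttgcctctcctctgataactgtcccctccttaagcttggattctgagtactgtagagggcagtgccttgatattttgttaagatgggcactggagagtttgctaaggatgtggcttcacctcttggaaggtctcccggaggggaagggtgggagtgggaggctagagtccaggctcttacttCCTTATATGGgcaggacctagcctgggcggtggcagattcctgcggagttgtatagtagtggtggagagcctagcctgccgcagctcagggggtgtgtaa
Cnn2: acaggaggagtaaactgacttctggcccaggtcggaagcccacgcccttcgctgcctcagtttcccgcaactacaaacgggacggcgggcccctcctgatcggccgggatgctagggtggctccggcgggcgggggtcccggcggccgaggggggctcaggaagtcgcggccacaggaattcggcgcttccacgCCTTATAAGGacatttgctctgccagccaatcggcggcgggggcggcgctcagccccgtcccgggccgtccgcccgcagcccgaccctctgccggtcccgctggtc

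Cholesterol synthesis and uptake genes stood low at the ends. Of 24 tested, 0 were higher and 23 lower, with 8 arch and 0 U and a median difference of -0.81. With ends and middle as 2 groups of 6 libraries, in which the distance between D5 and D15 counts as spread, 5 were lower, and when a fold of over 1.5 was required 0 were arch. The late arm carried most of this: the median of D5 minus the middle was -0.03. SREBP2, the factor that drives this pathway when sterol is low, is encoded by Srebf2, which had 443, 483 and 472 CPM at D5 and 274, 282 and 269.5 CPM at D15, against 588, 606 and 685 CPM at D7 and 502, 492 and 514 CPM at D8. Its arms were -0.27 ± 0.05 and -1.03 ± 0.06, so it was itself an arch.

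Dhcr7, which makes the last step to cholesterol, had 135, 137 and 144 CPM at D5 and 49.4, 44.7 and 41.5 CPM at D15, against 232, 225 and 221 CPM at D7 and 188, 169 and 178 CPM at D8. Ends and middle did not overlap, with arms of -0.53 ± 0.07 and -2.15 ± 0.08. Sc5d, another late enzyme, was at 103, 114, 163, 129, 90.1 and 75.8 CPM, and Fdft1, the first enzyme committed to sterols, at 166, 169, 255, 198, 132 and 61.1 CPM with 73.5% unique stretches. Lss, Mvk and the sterol carrier gene Stard4 were arch genes too. Dhcr7, Fdft1 and Sc5d kept the arch against D7 and D8 separately, whereas Lss, Mvk, Srebf2 and Stard4 did not. Mvk lost the arch without the first or the third D5 library, with D5 arms of -0.17 and -0.22.

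Hmgcs1, an early synthase of the pathway, had its top at D7 rather than in the whole middle, with 1529, 1473 and 1560 CPM at D5 and 443, 435 and 428 CPM at D15, against 1767, 1915 and 1967 CPM at D7 and 1109, 1212 and 1232 CPM at D8. D8 minus D7 was -0.67 ± 0.06, the D5 mean lay between them, and the D5 arm of 0.03 ± 0.05 was not called. A sterol element of 9 letters, TCACNCCAC on either strand, was present in the promoter of 1 of 16 list members, Hmgcs1, 6.25%, and in 146 of 10363 genes, 1.41%. That promoter, at chr13:119690101-119690400, plus strand, is shown with the element in capitals, because Hmgcs1 is a textbook SREBP2 target whose level fell at D15 but not at D5.
Hmgcs1: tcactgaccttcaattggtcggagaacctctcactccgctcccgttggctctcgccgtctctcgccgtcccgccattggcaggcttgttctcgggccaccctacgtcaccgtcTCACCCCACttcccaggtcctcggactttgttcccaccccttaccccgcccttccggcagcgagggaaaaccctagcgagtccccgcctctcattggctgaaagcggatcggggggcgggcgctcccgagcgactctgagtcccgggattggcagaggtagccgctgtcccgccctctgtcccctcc

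Imprinted genes that govern fetal growth were also mostly low at the ends. Of 17 tested, 1 was higher and 14 lower, with 8 arch and 0 U, 7 with opposite arms and a median difference of -0.40. With ends and middle as 2 groups of 6 libraries 6 were lower, and when a fold of over 1.5 was required 6 were lower and 1 was an arch. Igf2r, which clears the growth factor IGF2, had 403, 402 and 415 CPM at D5 and 654, 624 and 702 CPM at D15, against 811, 902 and 836 CPM at D7 and 1107, 1193 and 1169 CPM at D8. Its arms were -1.28 ± 0.05 and -0.59 ± 0.05, without overlap. Plagl1, a zinc finger gene, was an arch mainly by its early arm, -5.11 ± 0.12, with -0.41 ± 0.09 at D15, and its daily means were 99.4, 1849, 3037, 3871, 3359 and 2586 CPM.

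Peg3, Ndn, Grb10, Slc38a4 and the long noncoding RNA Meg3 had smaller arches, with differences of -0.70 ± 0.08, -0.40 ± 0.05, -0.32 ± 0.04, -0.57 ± 0.04 and -0.33 ± 0.05. The arch of Meg3 was lost when each of 9 libraries, from D5, D6, D7, D8 and D15, was left out in turn, with D15 arms of -0.14 to -0.10. It was also lost with RLE scaling, DESeq2, genes with 1 CPM in at least 9 libraries and the 12 libraries of D5, D7, D8 and D15 alone. Nnat, described above, was the widest. Igf2r, Ndn, Nnat and Peg3 kept the arch against D7 and D8 separately, whereas Grb10, Meg3, Plagl1 and Slc38a4 did not. Igf2 itself followed a trend at 5095, 11830, 12400, 17840, 21610 and 26800 CPM from D5 to D15, with 37.9% unique stretches. Peg10, a gene of retroviral origin, fell at D15 only, with an arm of -3.87 ± 0.07 and 351 CPM there, against 4670 CPM at D7 and 5616 CPM at D8.

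Cardiac transcription factors were called about as often as all genes. Of 20 tested, 5 were higher and 5 lower at the ends, 25% each against 24.9% and 27.2% of all genes, with 2 U, 3 arch and 8 with opposite arms, and a median difference of -0.04. Without the third D7 or the third D8 library 8 were lower. Gata4, a zinc finger factor of the heart fields, had 175, 169.7 and 133 CPM at D5 and 227, 228 and 238 CPM at D15, against 455, 428 and 342 CPM at D7 and 537, 451 and 366 CPM at D8. It was an arch with arms of -1.43 ± 0.14 and -0.90 ± 0.13, and its D10 mean of 486 CPM was the highest. Hand2, a helix-loop-helix factor of the outflow tract and right ventricle, had 87, 86.7 and 81.3 CPM at D5 and 56.1, 61.5 and 63.7 CPM at D15, against 116, 94.1 and 118 CPM at D7 and 118, 105 and 118 CPM at D8. Tbx2, a T-box repressor that keeps the atrioventricular canal from forming chamber muscle, was an arch at 13.2, 44.7, 40.1, 32, 21.5 and 20.3 CPM from D5 to D15.

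The related repressor Tbx3 was U and had 85.1, 97.4 and 119.6 CPM at D5 and 10.4, 6.91 and 4.8 CPM at D15, against 4.76, 7.41 and 9.46 CPM at D7 and 1.89, 2.32 and 1.62 CPM at D8. Nearly all of its difference was early, with arms of 4.75 ± 0.18 and 0.97 ± 0.27. Hey2, a Notch target of the ventricle, was U at 14.1, 6.88, 3.53, 8.43, 32.9 and 13.5 CPM, with its peak at D10. Neither Tbx3 nor Hey2 kept the U against D7 and D8 separately, whereas Gata4, Hand2 and Tbx2 kept the arch. Tbx5 followed a trend at 6.42, 16.1, 26, 45.5, 65 and 73 CPM, with arms of -2.43 ± 0.39 and 1.08 ± 0.28. Its difference between ends and middle, -0.68 ± 0.28, was not called, but was called lower at -0.83, -0.78 and -0.68 without the third D7, the third D8 or the third D10 library, and at -0.72 to -0.66 with upper quartile scaling, DESeq2 or a quadratic in time. Hand1, whose early domain includes extraembryonic mesoderm and the left ventricle, trended the other way with arms of 1.08 ± 0.13 and -5.44 ± 0.23. Nkx2-5 was low in every library, at 0.89, 1.13, 1.71, 4.32, 5.69 and 11.2 CPM, and Isl1 had 15.2, 9.76, 6.58, 8.81, 7.7 and 2.38 CPM.

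Most sarcomere genes followed a trend. Of 31 tested, 8 were higher and 6 lower at the ends, 5 were U, 0 arch and 19 had opposite arms. Tnnt2, Actc1 and Myl7, defining genes of the cardiomyocyte label, had D15 means of 889.7, 1688 and 1311 CPM, and D5 means of 119, 163 and 47.5 CPM, against D8 means of 358, 580.1 and 242 CPM and D7 means of 291, 286 and 167 CPM. None of the 3 was called between ends and middle. The summed level of the list varied 1.67-fold between D15 libraries and 1.13-fold between D5 libraries, against 1.52-fold between D7 and 1.74-fold between D8 libraries.

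Among the U genes of the list, Ankrd1, a stretch-responsive nuclear and sarcomeric protein gene, had 104, 118 and 88.8 CPM at D5 and 338, 217 and 162 CPM at D15, against 30.5, 34 and 26.7 CPM at D7 and 21.6, 22.9 and 22.1 CPM at D8. Its arms were 1.99 ± 0.26 and 3.2 ± 0.25. Tnnc1, the troponin C of cardiac and slow muscle, had 166, 159.9 and 149 CPM at D5 and 296, 222 and 152 CPM at D15, against 74.9, 59.1 and 31.3 CPM at D7 and 87.3, 77.2 and 39.1 CPM at D8, with arms of 1.36 ± 0.32 and 1.86 ± 0.32. Synpo2l, a Z-disc protein gene, was at 57, 14.8, 16.1, 18.5, 30 and 61.4 CPM and Cryab, a small heat shock protein gene, at 146, 97, 105, 77, 96.3 and 239.6 CPM. The 5 U genes, Tpm1 included, had no overlap of ends and middle, and their lowest daily mean was at D6, D7 or D8.

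Of 24 tested calcium handling and ion channel genes, 5 were higher (20.8%) and 7 lower (29.2%) at the ends, close to the shares of all genes, and 1 was U and 1 an arch. The U was Cacna1g, a T-type calcium channel gene, with 2.47, 2.1 and 3.0 CPM at D5 and 92.5, 112 and 101 CPM at D15, against 0.893, 0.771 and 0.93 CPM at D7 and 1.89, 0.332 and 1.44 CPM at D8. The arch was Kcna5, an atrial potassium channel gene, with daily means of 6.34, 20.1, 19.6, 21.7, 23.6 and 12.1 CPM. Hcn4, a pacemaker channel gene, had its early arm only, -3.38 ± 0.17, with -0.08 ± 0.13 at D15. The number higher was 2 without the first D15 library and 3 without the second D5, the third D7 or the third D8 library.

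Of 12 tested chamber and secreted heart factor genes, 3 were higher and 5 lower, with 2 arches, or 4 without the third D5, the third D7 or the second D8 library. Hey1, a Notch target of the atria, was an arch at 2.69, 3.91, 10.4, 35.3, 45.4 and 7.15 CPM from D5 to D15. Hey1 and Hey2 thus had opposite shapes, although both had their highest mean at D10. Nppa, an atrial hormone gene, was sparse at 2.74, 0.618, 4.58, 4.09, 5.57 and 2.49 CPM with 46.6% unique stretches, and Nppb was at 5.01, 2.64, 6.62, 2.81, 0.598 and 0.283 CPM. Of 16 tested second heart field genes, 6 were higher and 5 lower, with 2 U (Aldh1a2 and Osr1) and 2 arch (Sfrp5 and Nr2f1). Osr1, of posterior mesoderm, had daily means of 1.7, 0.308, 0.355, 0.811, 5.38 and 129 CPM from D5 to D15, and Nr2f1, an orphan nuclear receptor gene, 1.67, 22.4, 23.6, 31.6, 20.4 and 13.9 CPM. The arch of Nr2f1 was lost without the third D15 library, with a D15 arm of -0.87.

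Hedgehog, heterochronic and cell cycle genes gave no U and no arch, against 6.96% U and 7.77% arch of all genes. In lists as short as the Hedgehog and heterochronic ones, a count of 0 is close to these shares. Of 10 tested Hedgehog genes, 4 were higher and 4 lower at the ends, and 2 were lower without the second D5, the second or the third D7, the third D8 or the first D15 library. Without the third D7 library 1 was a U. Ptch1, the receptor gene that Hedgehog signalling induces, had 39.3, 43.5 and 56 CPM at D5 and 18.7, 11.5 and 7.84 CPM at D15, against 14.7, 21.3 and 20.8 CPM at D7 and 17.1, 13.4 and 11.5 CPM at D8. Its D5 arm of 1.5 ± 0.21 was called and its D15 arm of -0.38 ± 0.26 was not, so its difference of 0.56 ± 0.20 was an early one. That difference was not called without the third D5, the first D7, the second or the third D8 or the first D15 library, when it was 0.37 to 0.54. Gli3 was alike with arms of 0.91 ± 0.10 and -0.07 ± 0.10, and Gli2 fell through the middle with 0.64 ± 0.07 and -0.91 ± 0.08. Hhip, an induced Hedgehog antagonist, had 51 counts at D5 and 0 at D15 against 67 in the 6 middle libraries, which puts D15 at least 11.4-fold lower than the middle (floor of 3 counts over the D15 libraries). Gli1 did not pass the filter on low counts.

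Of 8 heterochronic genes, which time developmental transitions, 7 were lower at the ends and 6 had opposite arms, and with upper quartile scaling 1 was an arch. Lin28a, the RNA-binding inhibitor of let-7, had 1060, 1021 and 980.5 CPM at D5 and 0.176, 0.354 and 0.32 CPM at D15, against 189, 219 and 178 CPM at D7 and 61.9, 77.3 and 70.9 CPM at D8. Its difference of -2.78 ± 0.14 came from a D15 arm of -8.68 ± 0.18 that outweighed a D5 arm of 3.13 ± 0.06. Prtg and Lin28b had the same order, with ends minus middle of -1.91 ± 0.12 and -2.09 ± 0.11. In the model with ends and middle as 2 groups these 3 differences turned to 1.94, 2.19 and 0.13 with no call, so the sign of a gene with such unequal arms depends on the scale on which the days are averaged. Of 22 genes each of DNA replication and of mitosis, 18 in each list had opposite arms, D5 above and D15 below the middle in Mcm2 (0.37 ± 0.06 and -1.02 ± 0.06) and Plk1 (0.37 ± 0.08 and -0.90 ± 0.09).

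Energy metabolism genes had their larger median arm at D15. Of 17 tested glycolysis genes, 12 were higher and 0 lower at the ends, and 2 were U, against 6.96% U of all genes. The median difference was 0.58, with median arms of 0.13 at D5 and 1.42 at D15. In 7 the arms were opposite, among them the glucose transporter genes Slc2a1 (1.78 and -0.78) and Slc2a3 (2.93 and -0.72), which were higher at the ends through D5. Ldha, which makes lactate, had 297, 299.8 and 281 CPM at D5 and 1325, 1212 and 1030 CPM at D15, against 114, 106 and 94.7 CPM at D7 and 611, 309 and 249 CPM at D8. D8 was above D7 by 1.9 ± 0.27, and the D5 libraries lay within the range of D8, with a D5 arm of 0.53 ± 0.22 that was not called. The 2 U genes, Gapdh and Pgam1, had 74.9% and 63.8% unique stretches, so their counts can be shared with copies. The list had 1 U without the second D5 library and 6 without the first D8 library. With ends and middle as 2 groups of 6 libraries 2 of the list were higher. When a fold of over 1.5 was required 6 were higher and 0 were U. Of 17 tested low-oxygen response genes, 7 were higher and 1 lower with 0 U and 9 with opposite arms, and the median arms were -0.66 at D5 and 1.62 at D15. The list was led by Egln3, an oxygen-sensing hydroxylase gene, at 3.46, 1.9, 0.655, 6.49, 52.1 and 449 CPM, and Vegfa at 98.2, 43.2, 58, 66.8, 227 and 532 CPM. It had 1 U without the first D8, the first D15 or the third D15 library. Of 23 tested oxidative metabolism genes, 14 were higher and 1 lower with 1 U and 9 with opposite arms, the median arms were -0.66 at D5 and 1.99 at D15, and Cd36, a fatty acid transporter gene, was at 17.1, 15.4, 23.1, 18, 34.7 and 163 CPM. The U of this last list was lost when each of 8 libraries of D5, D7, D8 and D15 was left out in turn, and the number lower ranged from 0 to 3.

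In the 25 ATF4 stress effectors, 11 were higher and 1 lower, with 5 U, but D7 and D8 were far apart. Trib3, a pseudokinase gene that ATF4 induces, had 7.28, 11.3 and 10.1 CPM at D5 and 24.2, 15.9 and 11.8 CPM at D15, against 8.49, 11 and 18.3 CPM at D7 and 1.6, 1.66 and 1.08 CPM at D8. Its D7 libraries lay within the range of the ends and its D8 libraries far below, with D8 minus D7 of -3.11 ± 0.37. Psat1, of serine synthesis, had D7 and D8 means of 148 and 35.6 CPM, and Shmt2, of mitochondrial one-carbon metabolism, of 113 and 47.6 CPM. Of the 5 U genes, Chac1, which breaks down glutathione, alone kept the shape against both middle days, at 6.55, 2.87, 3.48, 0.788, 0.469 and 7.17 CPM from D5 to D15. Of 12 p53 targets, 4 were higher and 3 lower. Fas, a death receptor gene, was an arch with 2.91, 3.08 and 2.59 CPM at D5 and 10.9, 11.7 and 12.5 CPM at D15, against 19.1, 16.8 and 23.2 CPM at D7 and 21.1, 28.1 and 30.4 CPM at D8, Plk2 was an arch at 102, 121, 127, 171, 118 and 59.3 CPM, and Cdkn1a, the cell cycle inhibitor p21, was a U with small arms of 0.37 ± 0.12 and 0.60 ± 0.12. Cdkn1a lost its U without the second D5 library, with a D5 arm of 0.34.

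Of 16 tested basement membrane genes, 10 were higher and 4 lower at the ends, with 6 U and 1 arch and a median difference of 0.28. Lamb1, a laminin chain gene, had 697, 695 and 666 CPM at D5 and 802, 757 and 767 CPM at D15, against 290.2, 338 and 365 CPM at D7 and 356, 359 and 429.9 CPM at D8. Its arms were 0.95 ± 0.06 and 1.12 ± 0.06. Col4a2 was at 283, 210.4, 182, 239.6, 678 and 2727 CPM from D5 to D15, with a late arm of 3.71 ± 0.06 and an early one of 0.44 ± 0.07, and its genomic neighbour Col4a1 was U with arms of 0.38 ± 0.08 and 3.63 ± 0.08. Hspg2, encoding perlecan, was a shallow U with a difference of 0.37 ± 0.09 and no overlap, and Lama5 and Lamc1 were U too. Hspg2 lost its U without the third D5 library, with a D5 arm of 0.30, and Lamc1 when any of 7 libraries of D5, D7, D8 and D15 was left out, with arms of 0.16 to 0.23. Lamc1 also lost it with upper quartile scaling, unfiltered genes or the 12 libraries of D5, D7, D8 and D15 alone. Col18a1 was the arch, with 920.3, 929 and 839.9 CPM at D5 and 372, 321 and 283 CPM at D15, against 897, 941 and 1079 CPM at D7 and 1446, 1491 and 1777 CPM at D8.

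Of 20 tested fibroblast and matrix genes, 7 were higher and 9 lower, 15 had opposite arms, 1 was U (2 without the second D7 or the second D8 library) and 1 was an arch. The U was Bgn, the proteoglycan biglycan, with 13.5, 14.3 and 12.4 CPM at D5 and 1091, 1004 and 1050 CPM at D15, against 2.83, 3.4 and 1.86 CPM at D7 and 12.3, 9.13 and 8.26 CPM at D8. The arch was Postn, the matrix protein periostin of valve and fibroblast lineages, with 12.4, 13.4 and 15.4 CPM at D5 and 338, 342 and 292 CPM at D15, against 751, 791 and 1432 CPM at D7 and 1334, 1514 and 2657 CPM at D8. Its D15 libraries held 324 CPM on average and its D8 libraries 1835 CPM, whereas Col3a1, a fibrillar collagen gene, was at 17.2, 372, 1100, 5079, 10260 and 12530 CPM and had opposite arms. The summed level of the matrix list was 62900 to 74400 CPM at D15 and 3850 to 4120 CPM at D5, against 28100 to 38700 CPM at D8 and 13000 to 17200 CPM at D7, and its part in the other D15 values was not tested.

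Of 12 tested epicardial and mesothelial genes, 5 were higher and 6 lower at the ends, with 2 U (Lrrn4 and Krt19), 0 arch and 6 with opposite arms. Their median arms were -1.16 at D5 and 1.79 at D15. Lrrn4 had 407, 369 and 356 CPM at D5 and 684, 747 and 735 CPM at D15, against 130.4, 134 and 135 CPM at D7 and 119, 155 and 142 CPM at D8. Krt19 had daily means of 259.6, 62.6, 86, 137, 167 and 263 CPM, while Wt1 followed a trend at 9.65, 31, 65.7, 126, 242 and 260.1 CPM. Of 18 tested endothelial genes, 6 were higher and 5 lower at the ends and 7 had opposite arms, with median arms of -1.74 at D5 and 1.89 at D15. Flt1 and Flt4 were U and Tek, the angiopoietin receptor gene, was an arch. Tek had 52.2, 52.3 and 62 CPM at D5 and 75.2, 89 and 103 CPM at D15, against 305, 299 and 415 CPM at D7 and 261, 246 and 318 CPM at D8. Kdr, the main VEGF receptor gene, was at 66.4, 76.4, 56.2, 64.8, 71.8 and 85.2 CPM, and its difference of 0.32 ± 0.16 was not called, but was called at 0.42 and 0.46 without the third D7 or the third D8 library. Of 6 tested blood genes, Lmo2 was U at 3.5, 1.29, 0.658, 0.636, 1.42 and 5.25 CPM and the embryonic globin Hbb-bh1 had 6 counts at D5 and 0 at D15 against 99 in the 6 middle libraries, which puts D15 at least 16.8-fold lower.

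Apoe, an apolipoprotein gene of endoderm and macrophages, was the U of 7 tested endoderm genes, with 208, 241 and 195 CPM at D5 and 360.2, 434 and 449 CPM at D15, against 68, 65.4 and 58.3 CPM at D7 and 71.8, 70.5 and 67.2 CPM at D8. Nes, an intermediate filament gene of progenitors, was the U of 6 tested neural genes, with 260.0, 261 and 239.7 CPM at D5 and 138, 129 and 124 CPM at D15, against 43.8, 53.4 and 33 CPM at D7 and 45.5, 54.3 and 47.2 CPM at D8. Tnnt3, the fast skeletal troponin T, was the U of 4 tested skeletal muscle genes, at 27.4, 14.5, 4.99, 2.85, 4.36 and 13.1 CPM from D5 to D15. Klf4 was the U of 7 tested pluripotency genes at 22.4, 16.7, 6.59, 6.32, 3.85 and 16.3 CPM, with 2 U without the third D7 or the second D8 library, and 5 others of that list, among them Nanog and Sox2, did not pass the filter. Of 14 primitive streak genes 5 passed the filter, and Lhx1 had 80 counts at D5 and 3 at D15 against 0 in the 6 middle libraries. That puts D5 at least 48.1-fold higher than the middle and leaves D15 undetermined.

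**Figure D5:**
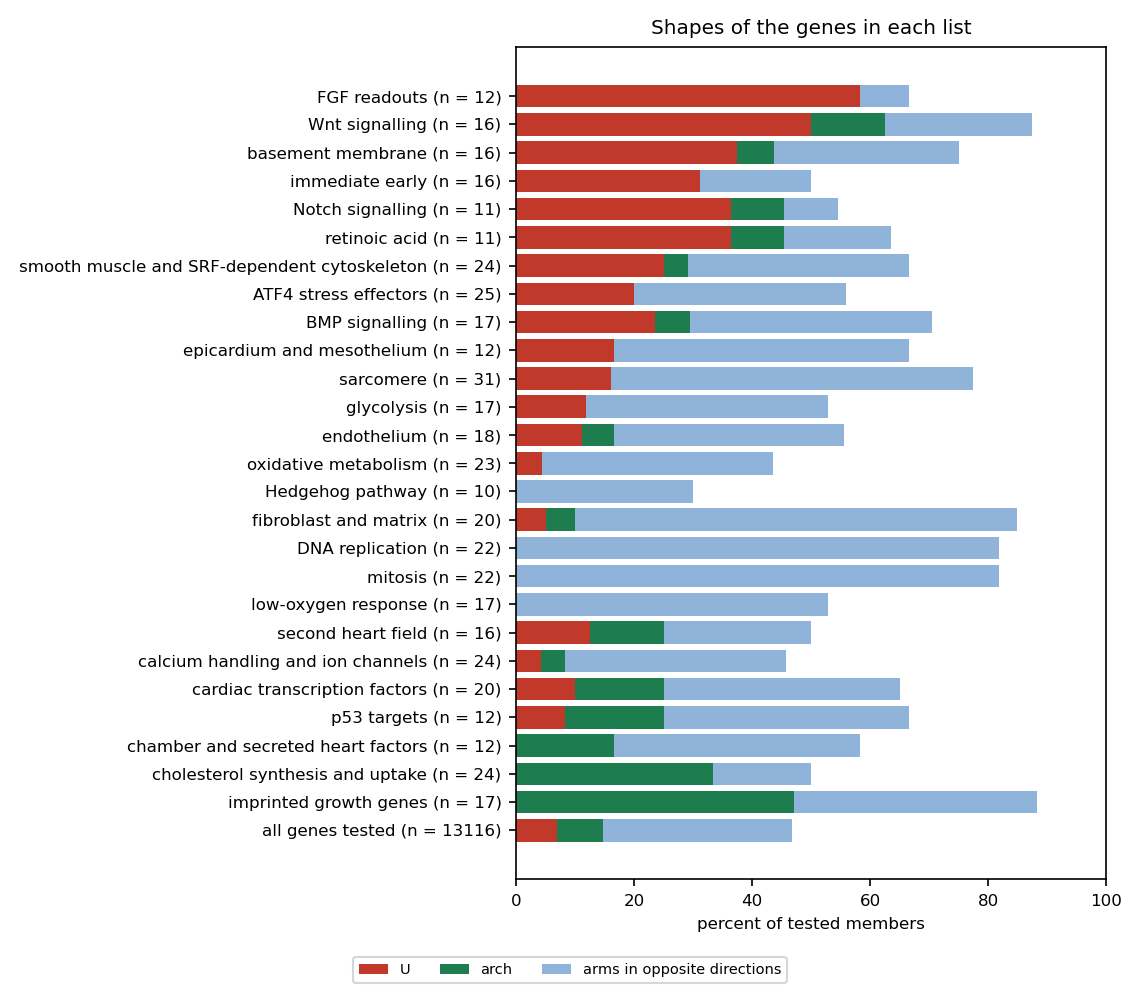
Percent of tested members of each list with at least 10 tested genes that were U, arch or had opposite arms; the lowest bar is all 13116 genes tested. FGF readouts and Wnt genes have the largest U shares, and imprinted and cholesterol genes the largest arch shares. DNA replication, mitosis, Hedgehog and low-oxygen response genes have no U and no arch.

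Among genes called between ends and middle with no shape, 1650 were higher and 1639 lower at the ends with at most 1 arm called. With ends and middle apart in every library, the largest higher ones were Tppp3, Tpcn2, Thap3 and Tbc1d10a, with differences of 0.64 ± 0.19, 0.52 ± 0.14, 0.51 ± 0.15 and 0.48 ± 0.13. The largest lower ones were Chst10, Igf2bp3, Ccdc112 and Pcdhga12, with -1.68 ± 0.24, -0.95 ± 0.04, -0.82 ± 0.08 and -0.76 ± 0.21. Igf2bp3, a fetal RNA-binding protein gene, had 317, 308 and 302 CPM at D5 and 89, 95 and 102 CPM at D15, against 339, 341 and 328 CPM at D7 and 317, 333 and 333 CPM at D8, and its difference was all late, with a D5 arm of -0.10 ± 0.05. Pcdhga12 shares its last exons with its gene cluster, so its counts are uncertain.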

How the data were processed

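PolyA RNA of 18 untreated TBX5-FTA libraries, 3 each at D5, D6, D7, D8, D10 and D15, was read as single-end reads of 50 bases on a HiSeq4000 after a TruSeq v2 preparation from 5x10E5 cells, per the labels. The authors deposited whole-number counts per gene symbol, not normalised, and alignment used STAR and mm10 per the submitters' processing notes; versions, annotation, counter and strand setting are not given in the sources used here. Another 3 columns of the table match no sample and were not used. Of 23337 symbols, 13116 passed filterByExpr (minimum count 10).

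One edgeR 4.0.16 quasi-likelihood model (robust, TMM, 1 mean per day, 12 residual degrees of freedom, R 4.3.3) was fitted to all 18 libraries, and contrasts were called at a Benjamini-Hochberg adjusted p under 0.05 over all genes tested. Fits were tested on simulated data in which 200 genes changed equally at both ends and all others were flat. The right shape was given to 78.5%, 77.3% and 95.5% of the changed genes tested, at folds of 1.5, 2 and 4. Trends were not simulated, so how often a trend gene is given a shape was not tested. The biological coefficient of variation was 8.27%. Named genes are the 12 U and 12 arch genes with the largest smaller arm (mean log2 CPM at least 2, no overlap of ends and middle), 4 called genes of neither shape in each direction, up to 4 members of each list by p plus its U and arch members, and a set of 25 genes, less a few that are not reported here; Cnn2, Dkk1, Myl9, Nkd1, Slc2a1, Slc2a3, Tcf7 and Wnt5b were named after their values were seen, as were genes said not to pass the filter. The comparison, the lists and their members were chosen with earlier results of these data known. Alternatives used DESeq2 1.42.0 and limma 3.58.1, other scalings and filters, a quadratic in time and leaving out each library. Exons and 50-base stretches were compared with GENCODE M21 (GRCm38, the build of mm10), and promoters are RefSeq's. Some named genes overlap another annotated gene, and without stated strand use their reads cannot be told apart.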

Additional observations from a re-analysis of the deposited data

How the results depend on the processing

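The counts over all genes kept within 1.5 times their value with RLE or upper quartile scaling, DESeq2, limma-voom, unfiltered genes, genes with 1 CPM in at least 9 libraries and the 12 libraries of D5, D7, D8 and D15 alone. These settings gave 788 to 945 U genes and 948 to 1230 arch genes. A quadratic in time gave 3334 genes higher and 3605 lower at the ends, and it has no U or arch count. Leaving out each library in turn gave 796 to 931 U and 916 to 1035 arch genes, with 3053 to 3324 genes higher and 3396 to 3633 lower at the ends. A required fold of over 1.5 (glmTreat) left 1004 higher and 767 lower, 1111 above and 1614 below the middle at D5, 2775 above and 1560 below at D15, 268 U, 223 arch and 995 opposite, by its construction. Ends and middle as 2 groups of 6 gave 1185 higher and 818 lower. Of the counts within lists, 49 moved by over 1.5 times as 2 groups and 17 did not, and 54 moved with the required fold and 78 did not. Calling each end against D7 and D8 separately, added after seeing the data, left 513 U and 609 arch genes. Junb, Myl6, Col4a1, Lamc1, Osr1, Nr2f1, Hey1 and Flt4 were among the named genes that lost their shape by this rule. As 2 groups, the sign of ends minus middle turned, with no call, in Col3a1 (1.02), Dkk1 (1.4), Gli2 (0.0555), Hand1 (0.0763), Igf2 (0.0769), Isl1 (0.197), Lin28a (1.94), Lin28b (0.13), Nkd1 (0.0918), Prtg (2.19), Tbx5 (0.148), Tcf7 (0.306) and Wt1 (0.493). Upper quartile scaling turned Cnn2 (-0.00659) and Tnnt2 (-0.0332), a quadratic turned Tnnt2 (-0.0329), and leaving out 1 library gave -0.112 to 0.127 for Tnnt2, -0.602 to 0.633 for Nkx2-5 and -0.331 to 0.0592 for Dkk1, none of them called. Scaling moved the median of all genes by less than 0.1. No paired analysis was possible because the columns carry no replicate number. Genes under about 1 CPM in the middle, such as Etv4, Lhx1, Sp5 and Lgr5, rest on few counts, which limits their folds.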
